A study of Mus musculus with 4 samples.

Results

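The genes described here encode the machinery through which nuclear-encoded proteins cross the mitochondrial outer membrane, in neurosphere cultures of mouse neocortex. The members were 8 genes of the translocase of the outer membrane and its helpers, Tomm5, Tomm6, Tomm7, Tomm20, Tomm22, Tomm34, Tomm40 and Tomm70 (annotated under its older symbol Tomm70a). The family was chosen from an earlier analysis of the same arrays, which had singled out Tomm6 by its log2 difference between the groups, so the differences below are a description of the comparison that chose it and not a test of the family. Of the 8 genes, 6 had a probe in the annotation given, with 10 probes in all, and Tomm5 and Tomm20 had none. Of the 10 probes, 9 were detected, meaning that the detection p fell below 0.05 on 2 or more of the 4 arrays, and the 6 genes are among 10044 named genes with a detected probe.

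Nearly all mitochondrial proteins are made in the cytosol and pass the outer membrane through the pore formed by Tomm40, a beta-barrel protein. Tomm20 and Tomm70 are receptors on the cytosolic side, Tomm22 is a receptor that also holds the complex together, and Tomm5, Tomm6 and Tomm7 are small membrane subunits that stabilise it. Tomm34 is a cytosolic co-chaperone that binds Hsp70 and Hsp90 and is not a subunit of the pore.

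Illumina bead arrays measured the RNA of neural stem or progenitor cells (NSPC) that overexpressed Bmi1, a polycomb protein, and of transgenic control cells, with 2 biological replicates of 1 array each per group. All cells came from the neocortex of conditional transgenic mice (Cre/LoxP) of the C57BL/6 strain, grew as spheres in suspension in 20 ng/ml of EGF and of FGF2, and were collected on day 5. The sources used here do not give the promoter that drives the transgene or Cre, the age of the mice or how many animals made up a culture. Bmi1 itself gave log2 values of 6.15 and 6.89 on the arrays labelled Bmi1, against 6.46 and 6.11 on the controls, so the groups overlapped and this probe did not check the labels.

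The scanner table and the processed table, both deposited, disagree on which arrays are which. The scanner headers are codes that the sample descriptions tie to the groups. Each processed column filed under a control sample correlated best by rank across probes with a scanner array whose code stands for Bmi1 cells. Each column filed under a Bmi1 sample did so with a control array. These best correlations were 1.00, with 0.899 at most for any other array. Groups are named here by the scanner headers, and every sign below turns if the processed table's names are right. Both Bmi1 arrays carry the same header code, which the descriptions give to a single Bmi1 sample. The code of the other Bmi1 sample heads no column, so these headers hold a fault of their own. First and second therefore refer to the place of the Bmi1 arrays in the table. The second Bmi1 array was the dimmest, with 16495 detected probes against 17742 to 18242 on the others.

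The stretch before the transcription start of 4 members is shown because these members had the lowest and the highest differences between the groups. These are the 250 bases upstream of the start from RefSeq on GRCm38.p6, read 5′ to 3′ on the gene's strand, at chr17:47688387-47688636 (minus) for Tomm6, chr7:19715430-19715679 (minus) for Tomm40, chr2:164071170-164071419 (minus) for the farther upstream of the annotated starts of Tomm34, and chr16:57121464-57121713 (plus) for Tomm70. Capitals mark CCAAT or its reverse ATTGG, and the ETS core CCGGAAG or its reverse CTTCCGG, which do not overlap each other here.
Tomm6: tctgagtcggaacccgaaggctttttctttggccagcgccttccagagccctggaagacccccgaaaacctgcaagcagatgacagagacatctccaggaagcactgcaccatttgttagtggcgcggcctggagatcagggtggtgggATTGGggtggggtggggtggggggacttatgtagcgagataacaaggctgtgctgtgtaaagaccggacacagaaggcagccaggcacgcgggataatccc
Tomm40: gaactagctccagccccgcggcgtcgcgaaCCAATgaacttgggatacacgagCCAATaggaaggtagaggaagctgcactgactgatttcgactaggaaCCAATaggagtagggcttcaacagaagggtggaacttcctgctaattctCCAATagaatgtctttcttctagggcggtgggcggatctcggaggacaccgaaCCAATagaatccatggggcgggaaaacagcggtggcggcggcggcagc
Tomm34: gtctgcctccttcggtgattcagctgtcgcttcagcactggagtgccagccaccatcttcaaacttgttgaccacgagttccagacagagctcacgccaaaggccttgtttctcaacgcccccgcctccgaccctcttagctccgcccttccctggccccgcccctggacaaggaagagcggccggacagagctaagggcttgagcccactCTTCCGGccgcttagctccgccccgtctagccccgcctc
Tomm70: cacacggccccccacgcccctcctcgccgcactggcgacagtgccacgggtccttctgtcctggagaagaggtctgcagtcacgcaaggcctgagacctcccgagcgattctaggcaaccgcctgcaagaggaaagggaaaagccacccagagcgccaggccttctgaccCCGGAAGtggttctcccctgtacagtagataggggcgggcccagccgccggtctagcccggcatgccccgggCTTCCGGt

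Tomm40 held 5 CCAAT matches in this window, beginning 220, 197, 150, 101 and 48 bases before the start, and Tomm6 held 1, at 101 bases. Of 32851 RefSeq upstream windows of the same length, 33.8% held at least 1 CCAAT match on either strand and 0.21% held at least 5. Tomm34 held 1 ETS core at this start and 2 at its other start. The windows of these starts overlap, and 1 match is the same site in both. Tomm70 held 2 ETS cores and Tomm22 held 2 that share letters, where 6.9% of all windows held 1 or more. Neither Tomm5 nor Tomm20 held a match to either motif. The motifs were chosen after the sequences had been read, and a match says only that the letters are there.

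Tomm6, a small subunit that in yeast helps to assemble the pore, was the member with the largest difference. Its brighter probe (ILMN_1218725) had background-subtracted signals of 725 and 333 on the first and second Bmi1 array, against 2222 and 2131 on the control arrays. After normalization the log2 values were 9.54 and 8.72 on the Bmi1 arrays and 11.05 and 10.98 on the controls. Both Bmi1 arrays lay below both controls, with a gap of 1.43 between the groups, while the controls differed from each other by -0.07. The means were 9.13 ± 0.58 in the Bmi1 cells and 11.01 ± 0.05 in the controls (SD, n = 2 each). This is a log2 difference of -1.88 (SE 0.29), or 3.68-fold lower in the Bmi1 cells.

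A second, dimmer Tomm6 probe (ILMN_1236123) stood the same way. Its log2 values were 6.98 and 5.85 on the Bmi1 arrays, against 8.01 and 8.10 on the controls, and the log2 difference was -1.64 (SE 0.35). Of 18237 detected probes ordered by log2 difference, the Tomm6 probes were the 21st and the 40th from the low end. The Bmi1 arrays differed from each other by -0.82 for the brighter and -1.13 for the dimmer probe. The second Bmi1 array carried the larger part of both differences, at -2.29 and -2.20 relative to the control mean, against -1.47 and -1.08 for the first. Without the second Bmi1 array the log2 differences were -1.45 and -1.07, and without the first -2.28 and -2.20. RefSeq lists an antisense gene, Tomm6os, that overlaps Tomm6, and no probe was annotated to it. Where the probes lie in these transcripts is not analysed here.

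Tomm40, the channel itself, was measured by 1 detected probe (ILMN_1223361). It had signals of 51.6 and 17.3 on the Bmi1 arrays, against 80.0 and 107.7 on the controls. The log2 values were 6.12 and 5.23 on the Bmi1 arrays and 6.47 and 6.76 on the controls, so the groups did not overlap. The log2 difference was -0.94 (SE 0.31). It was -0.50 without the second Bmi1 array, -1.39 without the first, and -0.62 with an offset of 50. The other Tomm40 probe was not detected on any array, with signals of 1.2 to 5.7, and gives no difference.

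The paralog Tomm40l had probes of opposite sign. Its brighter probe was at 10.69 and 10.32 on the Bmi1 arrays, against 10.68 and 11.04 on the controls, a log2 difference of -0.36 (SE 0.23, limma adjusted p = 0.423). The other stood at 0.23 (SE 0.21, limma adjusted p = 0.559). Tomm20l, the paralog of Tomm20, had no probe.

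Tomm22, the central receptor, differed little by its brighter probe (ILMN_2507182). That probe gave log2 values of 10.28 and 10.34 on the Bmi1 arrays, against 10.40 and 10.47 on the controls, and a log2 difference of -0.13 (SE 0.19). The groups did not overlap but lay only 0.06 apart, and the sign was lost with median scaling (0.00). The dim Tomm22 probe (ILMN_2444077) was detected on 3 arrays, with signals of 11.1 and 17.4 on the Bmi1 arrays and 15.4 and 6.9 on the controls. Its groups overlapped, and the log2 difference was 0.27 (SE 0.25).

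Tomm7, a small subunit that is also needed to hold the kinase PINK1 at the outer membrane of damaged mitochondria, had signals of 1086 and 1122 on the Bmi1 arrays, against 1542 and 1426 on the controls. It gave log2 values of 10.12 and 10.36 on the Bmi1 arrays, against 10.52 and 10.38 on the controls. The second Bmi1 array and control array 2 lay within 0.02 of each other. Its log2 difference was -0.21 (SE 0.20), about as large as its error.

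Tomm70, the receptor for carrier precursors that arrive with Hsp70 and Hsp90, was the member with the highest difference. Its signals were 39.0 and 28.4 on the Bmi1 arrays, against 27.4 and 27.2 on the controls, and its log2 values 5.82 and 5.72 against 5.37 and 5.29. Both Bmi1 arrays lay above both controls, with a log2 difference of 0.44 (SE 0.19). Before normalization the signal of the second Bmi1 array lay close to those of the controls. The estimate was 0.26 with an offset of 50 and 0.67 with no further background correction of the deposited signals.

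Tomm34, the co-chaperone, was measured by probes that differed in size. The dimmer one (ILMN_2441635) had log2 values of 7.09 and 6.83 on the Bmi1 arrays, against 7.62 and 7.72 on the controls, with no overlap and a log2 difference of -0.71 (SE 0.20). The brighter one (ILMN_2790144) had 8.75 and 8.20 on the Bmi1 arrays, against 8.69 and 8.82 on the controls. Its signals were 400.3 and 222 on the Bmi1 arrays, against 433 and 490 on the controls. In log2 the first Bmi1 array lay between the controls, and the log2 difference of -0.28 (SE 0.24) was -0.01 without the second Bmi1 array.

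**Figure D1:**
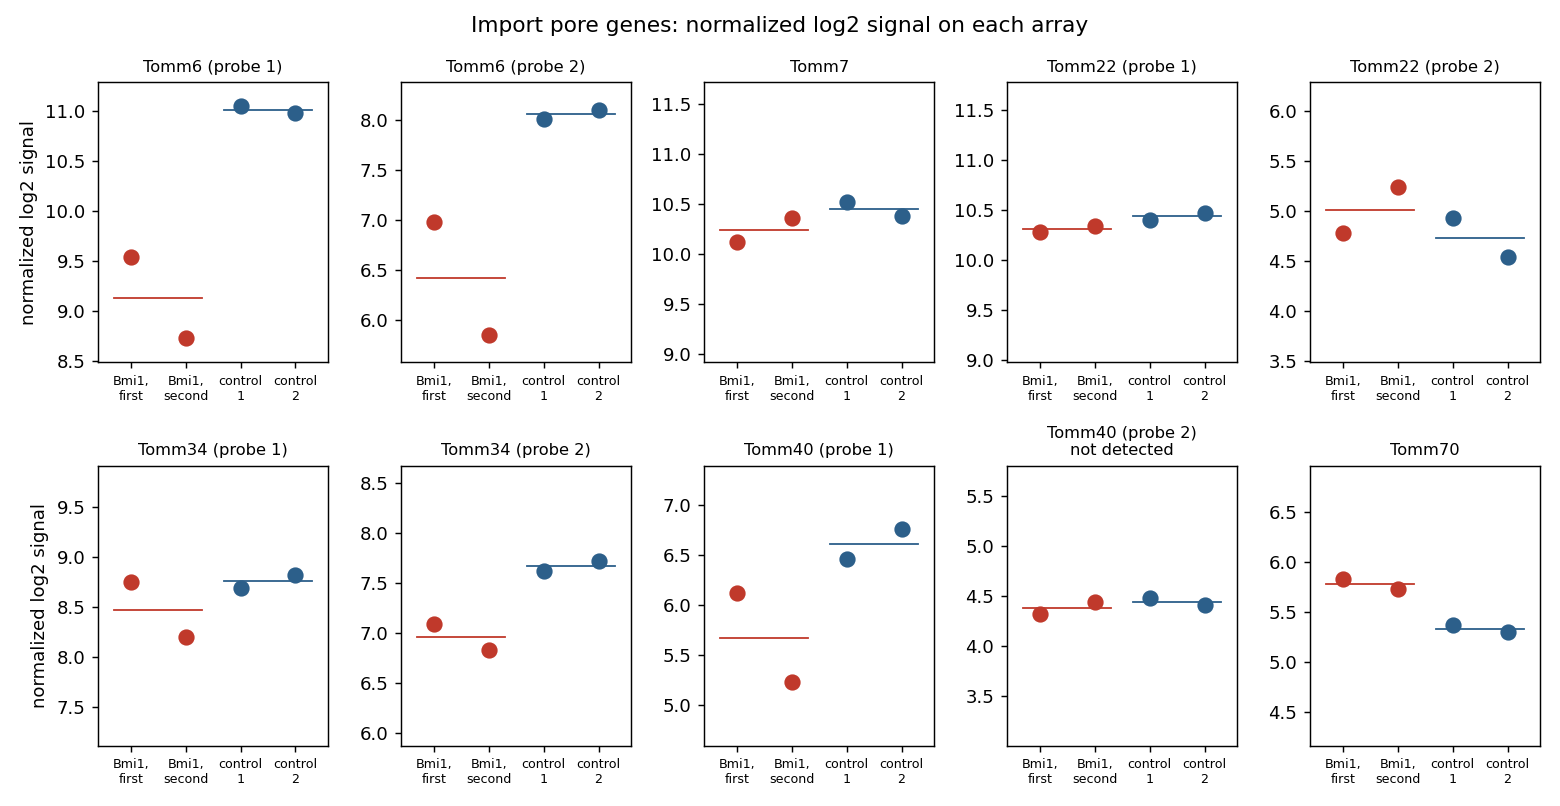
Normalized log2 signal (vertical axis, each panel 2.8 log2 units high) of the 10 probes of import pore genes on each array (horizontal axis), with Bmi1 arrays in red, control arrays in blue and group means as lines. The Tomm6 probes show the widest gap, while the points of the brighter Tomm22 probe and of Tomm7 lie close together.

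Counted together, 7 of the 9 detected probes were lower and 2 higher on the Bmi1 arrays, where 51.0% of all detected probes were lower. The median log2 difference of the 9 was -0.28, against -0.01 over all detected probes. Both Bmi1 arrays lay below both controls for 6 probes and above them for 1, where 27.3% of all detected probes lay below and 26.3% above. At an unadjusted p under 0.05 there were 4 member probes, all lower, of Tomm6, Tomm34 and Tomm40. Over all detected probes 3793 (20.8%) passed that mark, and 1835 (10.1%) did so as lower. As the comparison chose the family, nothing is read from these counts. Without control array 2 the log2 differences were -0.78 for Tomm40 and -0.67 for the dimmer Tomm34 probe. With limma and Benjamini-Hochberg adjustment 0 of the 18237 probes (0%) passed 0.05, and the adjusted p of the 7 probes of members other than Tomm6 ranged from 0.150 to 0.753. An exact two-sided permutation test of 2 arrays against 2 cannot go below 0.333.

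**Figure D2:**
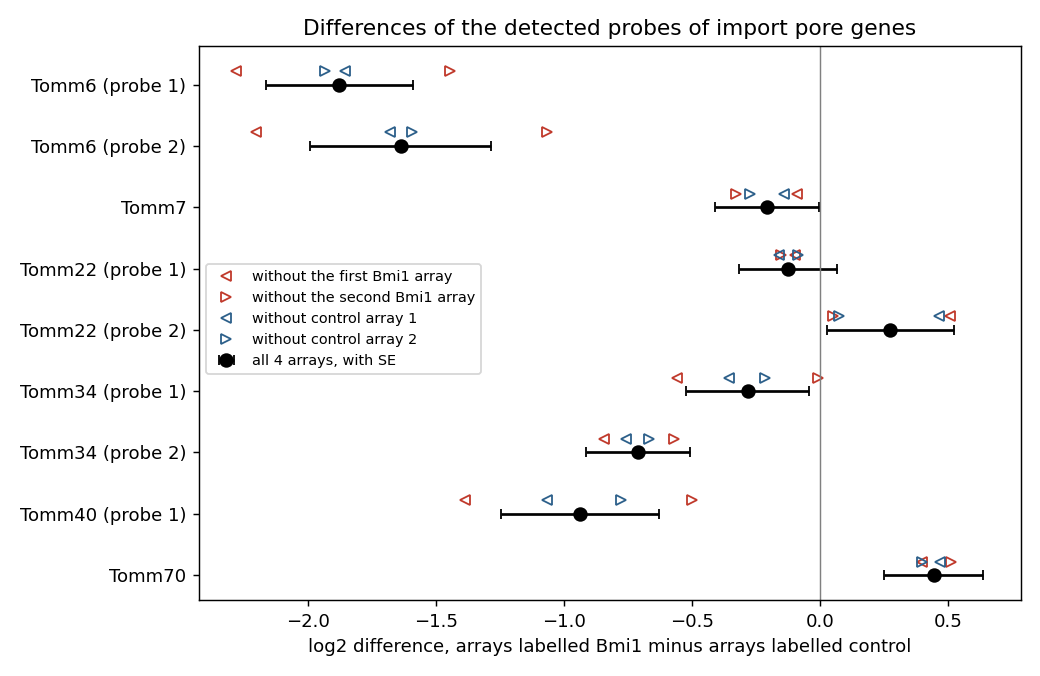
Log2 difference, arrays labelled Bmi1 minus arrays labelled control (horizontal axis), of the 9 detected probes (rows), with bars for the SE of the fit and open triangles for the value with 1 array left out. Leaving out the second Bmi1 array moved the Tomm6, Tomm40 and Tomm34 values toward 0.

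**Figure D3:**
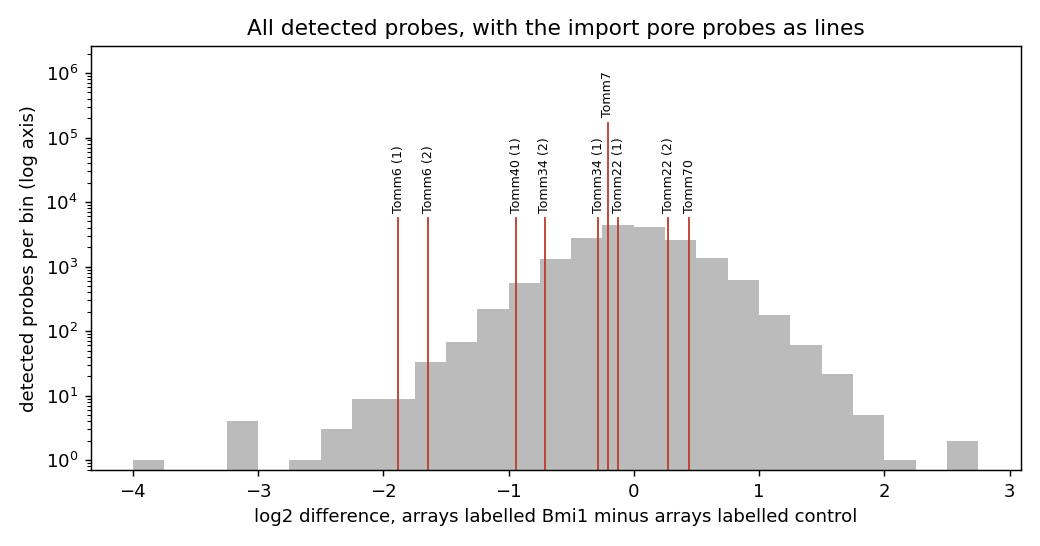
Number of detected probes (vertical log axis) by log2 difference, arrays labelled Bmi1 minus arrays labelled control (horizontal axis, bins of 0.25), with a red line for each import pore probe; (1) and (2) are the brighter and the dimmer probe of a gene. The Tomm6 lines stand in the low tail and the Tomm22, Tomm7 and Tomm70 lines in the body of the distribution.

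In the deposited processed table, whose own column names turn the groups, the Tomm6 values were 11.05 and 10.97 in the columns named Bmi1, against 9.58 and 8.81 in the columns named control, a difference of 1.81. Tomm40 stood at 0.63 and Tomm70 at -0.26 under these names. The sizes of the dim members were smaller there than from the scanner table.

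Markers of neural cell types were read on the same arrays, where 51.0% of all detected probes were lower on the Bmi1 arrays and the mean signal over all probes was 215 and 191, against 228 and 233 on the controls. Counts of lower markers use normalized log2 values. The sums are of signals before normalization, so they also carry the brightness of each array. Of 10 detected oligodendrocyte markers 7 were lower, and the summed signal of the list's 11 genes with a probe was 22019 and 16998 on the Bmi1 arrays, against 35421 and 23652 on the controls, with Mog not detected on any array. Of 8 detected astrocyte markers 7 were lower, with sums of 27241 and 27584 against 28910 and 32854, and S100b was not detected. Of 6 detected neuronal markers 4 were lower, with sums of 3256 and 1963 against 4138 and 4064, and Tubb3, Snap25 and Stmn2 were not detected. Of 8 detected neural stem and progenitor markers 5 were lower, Pax6 was not detected on any array, and the sums of the list's 10 genes overlapped (5750 and 4968 against 4405 and 7723). Few markers of other cells were detected, 2 of 7 for microglia (sums of 39.6 and 45.5 against 16 and 34.5) and 1 of 7 for vessels (218 and 35.3 against 57.7 and 106.2), with Cx3cr1, Itgam, Pecam1 and Cldn5 not detected. For fibroblasts 1 of 5 was detected, Pdgfra, which oligodendrocyte precursors also express, with list sums of 980 and 746 against 896 and 820, and for red cells none of the 2 with a probe. The part of the cell type makeup in the Tomm6 difference was not tested, and in these bulk cultures fewer cells of a type and less RNA per cell cannot be told apart.

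The genes whose pattern over the 4 arrays was most like that of Tomm6 were Ppp2r1a, Selenow, Rbck1, Sf3b4 and Vps72. Likeness was the Euclidean distance between log2 values centred on each gene's mean, which was 0.235, 0.236, 0.328, 0.343 and 0.356 for these 5, against a median of 2.00 over the 10043 other genes. Ppp2r1a, the scaffold subunit of protein phosphatase 2A, stood at -0.38 and -1.27 from its mean on the Bmi1 arrays, against 0.86 and 0.79 on the controls. Tomm6 stood at -0.53 and -1.35, against 0.98 and 0.90. For Tomm70 the nearest genes were Fbxl12, Cript, Defa39, Fbxo2 and Slc25a38, at distances of 0.0316 to 0.0597 with a median of 0.606 over the other genes. The distance depends on the size of a difference as well as on its pattern, and how many genes lie this close was not counted. With 4 arrays such likeness carries little weight.

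The rest of the import pathway was split between the directions. Of 64 other genes of import and mitochondrial content, 53 were measured by a detected probe, 25 lower and 28 higher on the Bmi1 arrays, and the median log2 difference was 0.01, as over all named genes (0.01). The 53 include 9 outer membrane genes and 6 other genes listed only for mitochondrial content. At an unadjusted p under 0.05 there were 3 lower genes, against 10.3% of all named genes, and 10 higher genes, against 13.1%. Of the 3 lower genes, Fis1 and Immt were on the content lists and Stip1 was a cytosolic chaperone. Of the 10 higher genes, 3 were on the content lists. These counts rest on the brightest detected probe of each gene, and nothing is read from their division. Both Bmi1 arrays lay below both controls for 10 genes, against 26.7% of all named genes, and above them for 19, against 29.7%. None passed with limma over all probes. Leaving out 1 array at a time gave a median log2 difference of -0.03 to 0.08 for these genes.

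Inside the organelle, the presequence translocase and its motor had 12 measured genes, 8 of them higher, with a median of 0.04. Timm50, the receptor of that translocase in the intermembrane space, was at 10.30 and 10.57 on the Bmi1 arrays, against 9.30 and 9.64 on the controls. These do not overlap, and the log2 difference was 0.96 (SE 0.22, limma adjusted p = 0.142). The carrier translocase and the small chaperones of the intermembrane space had 8 measured genes and a median of -0.07. Among these chaperones Timm13 stood at 0.70 (SE 0.22, limma adjusted p = 0.160) and Timm8b at -0.49 (SE 0.22, limma adjusted p = 0.260).

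The presequence and inner membrane peptidases had 5 measured genes and a median of 0.01. The sorting and assembly machinery builds beta-barrel proteins such as Tomm40 into the membrane, and its list also held genes of other outer membrane insertion. That list had 5 measured genes, a median of 0.06 and none at an unadjusted p under 0.05 by its brightest probe. Samm50, of the same list, had no detected probe. The other probe of Mtch1, of the same list, stood at -1.35 (limma unadjusted p = 0.000314), with the brighter one at 0.28. Of the oxidative folding pair, Gfer stood at 0.58 and Chchd4 at 0.06. The cytosolic chaperones had 5 measured genes and a median of -0.01, with Dnaja2, an Hsp70 partner, at 1.07 (SE 0.26, limma adjusted p = 0.142) and Stip1, which links Hsp70 to Hsp90, at -0.74 (SE 0.20, limma adjusted p = 0.142).

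Other proteins of the outer membrane, listed for mitochondrial content, had 9 measured genes and a median of 0.31. Fis1, a mitochondrial fission protein, was at 10.73 and 9.74 on the Bmi1 arrays, against 11.47 and 11.25 on the controls, with the second Bmi1 array farthest from the controls as for Tomm6. Its log2 difference was -1.12 (SE 0.33, limma adjusted p = 0.151), with its other probe at -0.86, and it was -0.63 without the second Bmi1 array. Mfn1, which fuses outer membranes, was at 0.67 (SE 0.22, limma adjusted p = 0.167), with its other detected probe at 0.70. In the list of content outside the outer membrane the median was -0.08, and Immt, an organiser of the inner membrane's folds, stood at -0.59 with its other detected probe at 0.31. Citrate synthase (Cs) stood at -0.12 and Tfam, which packages mitochondrial DNA, at -0.03. The remaining genes at an unadjusted p under 0.05, were Mipep at 0.68, Pmpcb at 0.53, Hsp90aa1 at 0.79, Vdac2 at 0.50 and Rhot2 at 0.73, and these, Gfer, Chchd4, Mtch1, Cs and Tfam were named after their values were seen. Of these, Hsp90aa1 had another detected probe at -0.26 and Rhot2 had others at -0.24 and -0.46.

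**Figure D4:**
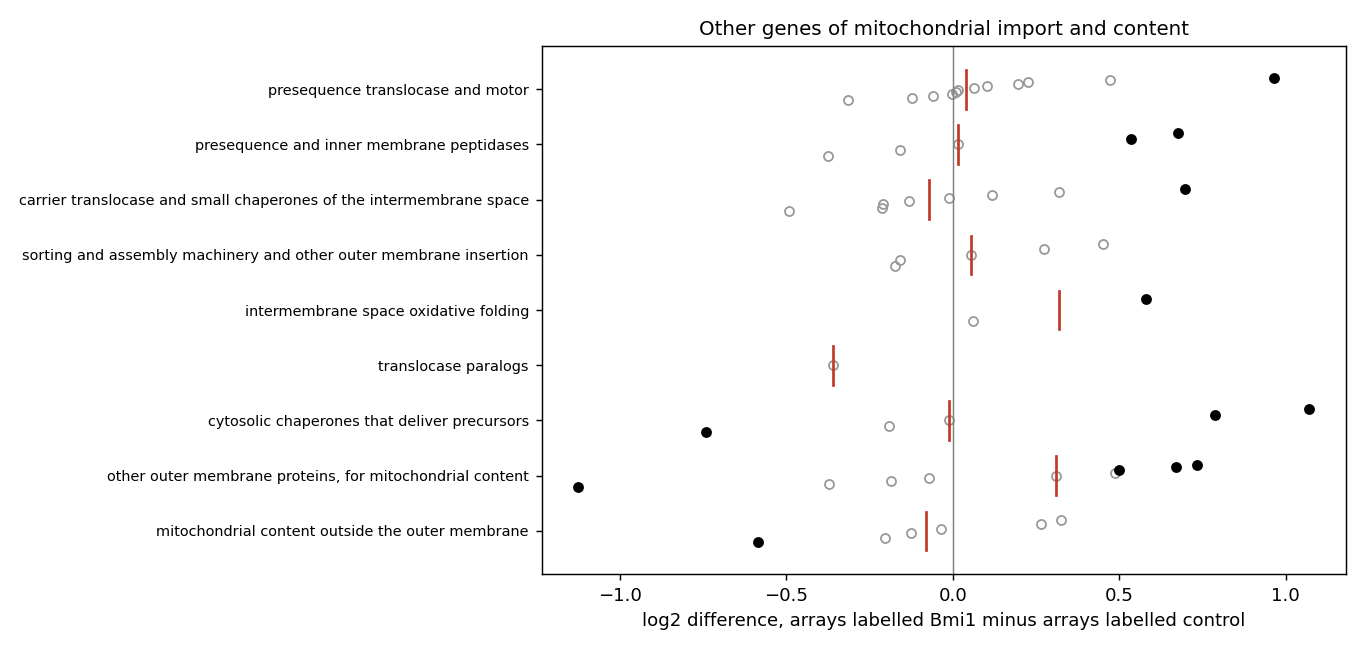
Log2 difference, arrays labelled Bmi1 minus arrays labelled control (horizontal axis), of each measured gene of the other import and mitochondrial content lists (rows), with filled points at an unadjusted p under 0.05 and red lines at the list medians. The genes scatter on both sides of 0 in most lists.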

How the data were processed

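Both deposited tables cover the 4 arrays. Each array has a signal intensity and a detection value per probe in the scanner table, per the file headers. The detection columns share 1 header that names no sample, and each was read with the signal column it follows. The deposited intensity values were already background-subtracted, and the deposited detection fraction rose with the signal (rank correlation 0.980 to 0.987) and was read as 1 minus the p-value. The authors' processed table holds log2 values with a common range, and lumi was used per the submitters' processing notes, with no version stated. Of 45281 scanner rows, 22 carried no probe identifier, and 45259 were kept.

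The neqc function (limma 3.58.1, R 4.3.3) corrected the background with an offset of 16 and normalized the arrays by quantiles. Probes with a detection p under 0.05 on at least 2 arrays were kept, and all 18237 were fitted with lmFit and eBayes, with group as the only term and Benjamini-Hochberg adjustment over all of them. SE values are those of the moderated fit. The fit was run on simulated data with independent noise and planted differences larger than those of the members. It therefore does not show how the fit performs at the members' sizes. Probes were named through the array's annotation, with symbols updated by gene identifier (34794 probes). For the pathway lists each gene was its brightest detected probe. Sequences are from RefSeq (GRCm38.p6), where 7 of the 8 members matched. The naming rule took all members, the paralogs, Bmi1, the 4 genes of the other lists with the smallest p in each direction and the 5 genes nearest to 2 members. Other genes named were chosen after their values were seen, as said beside them. Members and lists were chosen with earlier results of these data known. The p-values rest on the spread between 2 cultures per group, moderated toward that of all fitted probes (7.29 total degrees of freedom). The number of arrays limits the precision.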

Additional observations from a re-analysis of the deposited data

How the results depend on the processing

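The alternatives were the processed table, no further background correction, an offset of 50, median scaling, no filter on dim probes, a detection p under 0.01 on all arrays, 1 probe per gene, array weights, leaving out each array, and a replicate block on the processed table. Without further correction the deposited signals, already background-subtracted, were floored at 10 and normalized by quantiles. Of the member probes' values under these, 94 kept their sign and side of the adjusted threshold and 19 turned. The 94 are no measure of robustness, as no member probe passed that threshold in the first place. The fits with no filter, with the stricter detection p and with 1 probe per gene reused the same normalized values. The array weights were equal within each group, so in all of these fits no difference could change. Of the 19, 18 come from the processed table's opposite group names, where the fits without and with the block give the same 9 differences, and 1 from median scaling, where the brighter Tomm22 probe stood at 0.0013. Median scaling shifted the median of all probes to 0.12 and the import median to 0.16, against -0.01 and 0.01 with the quantile normalization of the report, and the share of lower probes among those at an unadjusted p under 0.05 to 34.0%, against 48.4%.

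With the processed table's own names, without and with a replicate block (the number in the labels), the values were 1.81 and 1.32 for Tomm6, 0.63 for Tomm40, 0.59 and 0.26 for Tomm34, 0.20 for Tomm7, 0.12 and -0.14 for Tomm22, -0.26 for Tomm70, 0.35 and -0.21 for Tomm40l, and -0.18 for Bmi1. They were 1.10 for Fis1, 0.72 for Stip1, 0.58 for Immt, 0.50 for Timm8b, 1.21 and -0.28 for Mtch1, 0.67 and -0.15 for Timm17b, -0.74 for Dnaja2, -0.93 for Timm50, -0.44 for Timm13, -0.66 for Mfn1, -0.56 for Gfer, -0.68 for Hsp90aa1, -0.63 for Mipep, -0.33 for Pmpcb, -0.71 for Rhot2 and -0.47 for Vdac2. Bmi1 was -0.13 without the second Bmi1 array and 0.61 without the first. The block gave 3394 probes at an unadjusted p under 0.05, against 3809 without it, 0 past the adjusted threshold, and 4 member probes with and without it. Deviations of same-numbered samples from their group means correlated at -0.20, and with crossed numbers, chosen after seeing the data, 4367 probes and 4 member probes stood at an unadjusted p under 0.05 and 0 passed the adjusted threshold.

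Leaving out each array gave 1643 to 4895 probes at an unadjusted p under 0.05 (1643 with control array 1 left out, 1984 with the second Bmi1 array left out) and 0 to 12 past the adjusted threshold (12 without control array 2, 1 without the first Bmi1 array). It gave 2 to 5 member probes and an import median of -0.0281 to 0.0752. With 1 probe per gene 2 members stood at an unadjusted p under 0.05. With no further background correction 7 genes of the import and content lists did, against 13 with the neqc correction. Over all detected probes the counts were 3358 and 3793. Where 1 array was left in a group, it was assumed to vary like the other group. The cause of these shifts was not tested.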

Other observations

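Probes of the same gene often differed in sign. Of 3763 named genes with several detected probes, 1730 (46.0%) had log2 differences of both signs. So did 16 of 25 genes of the import and content lists (64%) and 1 of 3 import pore genes, Tomm22. The count takes no account of size, and the quartiles of the log2 differences of all detected probes were -0.27 and 0.27. Mtch1, an outer membrane protein related to the solute carriers, had its brighter probe at 0.28 and another at -1.35, and Timm17b of the presequence translocase had probes at 0.20 and -0.95, both pairs chosen after their values were seen. Of the members with a pair of detected probes, Tomm6 and Tomm34 had the same sign on both.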
